A study of Homo sapiens with 29 samples.

Results

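This is the comparison of RNA from HCT116 cells that received both DAXX siRNA and crotonate with RNA from cells that received neither, described gene by gene. HCT116 is an established human colorectal carcinoma line. The comparison uses 8 of the 29 samples of the series, and 8 of its 16 RNA libraries: the 4 libraries named DAXXi_CR and the 4 named NTi. A gene belonged to it when it reached a log2 RPM (a gene's reads scaled to the depth of its library) of -2, which is 0.25 RPM, in at least 4 of the 16 RNA libraries. That rule kept 17973 of the 38148 genes of the table.

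DAXX is a histone chaperone that, with its partner ATRX, places the histone variant H3.3 at heterochromatin and repeats, and it also acts as a corepressor in PML nuclear bodies. Crotonate is a short-chain fatty acid that cells convert to crotonyl-CoA, the donor for crotonylation of lysines on histones. Acetyltransferases such as EP300 write this mark, class I histone deacetylases and some sirtuins remove it, and proteins with YEATS or double PHD finger domains bind it.

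Cells of the NTi group received 25 nM of a non-targeting siRNA and no crotonate. Cells of the DAXXi_CR group received 35 nM of siRNA against DAXX and 10 mM crotonate, for 48 h in the sample protocol and 18 h in the series text. The 2 groups therefore differ in siRNA target, siRNA dose and crotonate at once, and these cannot be told apart in this comparison alone. The groups with 1 of the treatments are DAXXi (35 nM DAXX siRNA, no crotonate) and NTi_CR (25 nM non-targeting siRNA, 10 mM crotonate). They have 4 libraries each and are used below to separate the siRNA step from the crotonate step. In all 4 groups siRNA target and dose go together, so no comparison here separates them. A knockdown step or effect below stands for target and dose together. Knockdown was transient, in 1 cell line, and the labels do not say that the replicates are separate cultures, so p-values measure only the spread between these libraries.

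Total reads, to the nearest 100, were 34265100 to 44407400 in the NTi libraries and 35474700 to 48496100 in the DAXXi_CR libraries. The epithelial markers EPCAM (267 RPM in NTi, 243 in DAXXi_CR), KRT8 (2505 and 2546) and CDX2 (17.6 and 17.7) were present in both groups, while CDX1, TFF3, CEACAM5 and FABP1 had no read in either. Markers of other cell types were sparse. The summed level of 10 fibroblast markers was 11.4 to 21.5 RPM in NTi and 19.5 to 27.7 RPM in DAXXi_CR, nearly all of it COL1A1, and DCN, LUM and DPT had no read in either group. The 12 immune markers summed to 9.28 to 13.0 and 10.7 to 14.1 RPM, nearly all CD68. The 10 endothelial markers summed to 5.08 to 10.1 and 11.1 to 13.6 RPM, nearly all ESAM. The part of these higher sums in the results below was not tested. Within groups, 1 component held 56.5% of the variance between libraries at genes at or above the median level. On it, NTi replicate 2 and DAXXi_CR replicate 4 stood farthest out on the same side. Counts without these 2 libraries are given beside the main ones.

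DAXX itself (ENSG00000204209, GRCh38 chromosome 6, 33318558 to 33323016, minus strand) was the gene with the smallest p-value. It stood at 103, 105, 102 and 101 RPM in the 4 NTi libraries and at 13.1, 21.2, 18.9 and 24.2 RPM in the 4 DAXXi_CR libraries. The groups lay far apart, and the DAXXi_CR libraries kept 18.8% of the NTi mean. The log2 fold change was -2.45 (SE 0.125, n = 4 per group, limma adjusted p = 5.54e-10). SMIM40, which overlaps DAXX on the same strand, went from 17.0 ± 0.64 (SD, n = 4) to 3.29 ± 1.2 RPM, and the strand that was counted is not given in the sources used here, so reads of the 2 genes may not be separable. In bulk RNA, a transcript lost from some cells and a transcript lowered in every cell cannot be told apart.

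With both treatments, more genes rose than fell on the deposited scale. Of the 17973 genes, 2825 (15.7%) were higher and 850 (4.73%) lower in DAXXi_CR at a limma adjusted p under 0.05, together 20.4% of all tested. At an unadjusted p under 0.05 there were 5929 genes (33%). The median change was 0.53 log2 units among those that rose and -0.38 among those that fell. A change of 1 log2 unit or more was reached by 446 of the raised genes (2.48% of all tested) and 56 of the lowered genes (0.312%). In 2449 genes (13.6%) every DAXXi_CR library lay above every NTi library, and in 791 (4.4%) every one lay below. Without NTi replicate 2 and DAXXi_CR replicate 4 the counts were 2963 higher and 952 lower.

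The balance of higher to lower depended on the scaling. Over all tested genes the median change was 0.06 log2 units on the deposited scale. Centring each library on its median gene moved that median by -0.12, to -0.06, and gave 1717 genes higher and 2245 lower. Quantile normalization gave 1859 higher and 1632 lower. Higher genes made up 76.9% of the calls as deposited, 43.3% after centring and 53.25% after quantile normalization. Of all tested genes, 9.55% rose and 12.5% fell after centring, and 10.3% rose and 9.08% fell after quantile normalization. A list median near 0 can therefore change sign with the scaling, and list medians below stand against the 0.06 of all genes. A fit on the 8 libraries alone gave 1747 higher and 343 lower.

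**Figure D1:**
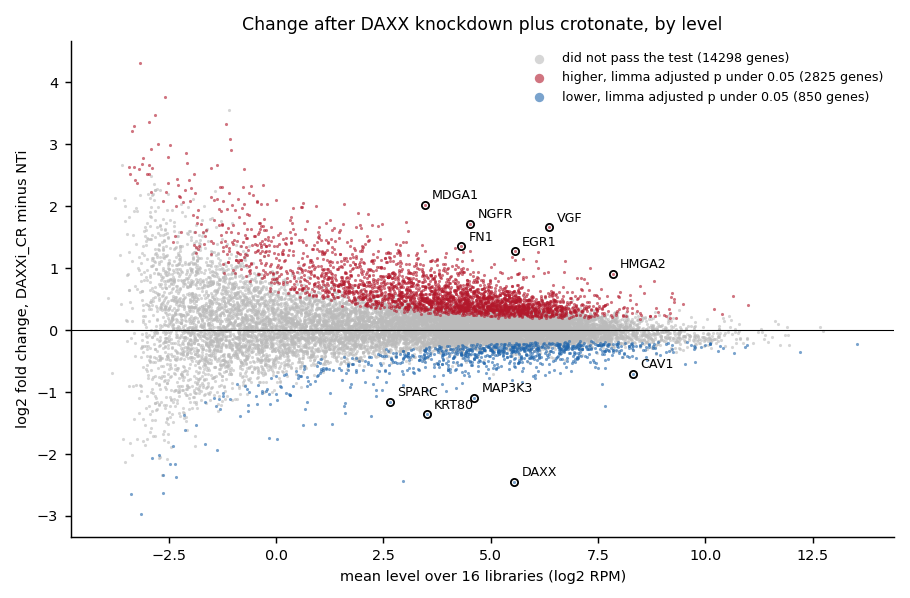
Log2 fold change of each of the 17973 tested genes, DAXXi_CR minus NTi, against its mean level over 16 libraries in log2 RPM. Red and blue points are the 2825 genes that rose and the 850 that fell by limma, grey points did not pass, and circled genes are named in the text, with DAXX lowest among them at -2.45.

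The most raised genes named here are those of largest change whose mean in the higher group reached the median level of tested genes, 4.09 log2 RPM. That condition depends on the change itself: over all 16 libraries MDGA1 (3.46 log2 RPM) and SEMA6A (3.48) lie below this median, as do KRT80 (3.51) and COL13A1 (3.85) among the lowered genes. MDGA1, a membrane-anchored synaptic adhesion protein, stood at 5.25, 7.54, 5.45 and 5.50 RPM in NTi and at 25.0, 23.3, 21.4 and 26.1 RPM in DAXXi_CR. Every DAXXi_CR library lay well above every NTi library. Its mean rose 4.04-fold (log2 fold change 2.03, SE 0.150, limma adjusted p = 4.69e-08).

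NGFR, the low-affinity neurotrophin receptor, had 12.6, 14.8, 11.7 and 11.4 RPM in NTi and 37.6, 42.7, 37.2 and 49.1 RPM in DAXXi_CR (log2 fold change 1.72). VGF, a neuropeptide precursor, had 53.4, 53.1, 47.2 and 33.4 RPM against 135, 141, 111 and 210 RPM (1.66). The groups did not overlap for either gene, though both VGF groups spread widely. FN1, which encodes the matrix protein fibronectin, had the tightest groups of these, with 12.5, 12.9, 12.6 and 12.1 RPM in NTi and 35.7, 31.4, 30.9 and 29.9 RPM in DAXXi_CR (1.35, SE 0.084, adjusted p = 6.94e-09).

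ABCA3, a lipid transporter, went from 11.9 ± 2.7 to 29.6 ± 3.3 RPM (1.33), and KIAA0513 from 14.5 ± 0.9 to 35.0 ± 3.2 RPM (1.27). The transcription factor ETS1 rose from 13.1 ± 1.4 to 31.6 ± 4.9 RPM (1.27), and SEMA6A, a transmembrane semaphorin, from 7.26 ± 0.84 to 17.5 ± 1.9 RPM (1.27). All of the most raised genes named here, EGR1 below included, had groups that did not overlap. NGFR, SEMA6A and ETS1 overlap genes on the opposite strand, as do KRT80, MAP3K3 and ELF3 below, so some of their reads may belong to those genes.

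By the same condition KRT80 had the largest decrease after DAXX. KRT80, a type II keratin, stood at 22.2, 18.6, 16.04 and 16.4 RPM in NTi and at 8.64, 6.54, 5.90 and 7.51 RPM in DAXXi_CR, a 2.57-fold difference (log2 fold change -1.36, SE 0.139, limma adjusted p = 1.53e-06). ATAD2, a bromodomain ATPase bound to replicating chromatin, fell from 289, 231, 320 and 322 RPM to 120, 128, 131 and 114 RPM (-1.23). MAP3K3, a kinase upstream of MAPK signalling, fell from 33.6, 38.1, 32.7 and 34.1 RPM to 15.9, 17.1, 15.3 and 16.6 RPM (-1.09). In each of these the DAXXi_CR libraries all lay below the NTi libraries.

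UHRF1, which recruits DNMT1 to replicating DNA, had 273, 291, 226 and 248 RPM in NTi and 124, 148, 132 and 163 RPM in DAXXi_CR (-0.88, adjusted p = 1.78e-06). CYBRD1, a ferric reductase, fell from 24.0 ± 3.0 to 12.5 ± 1.6 RPM (-0.94), and COL13A1, a transmembrane collagen, from 19.5 ± 1.3 to 10.9 ± 2.5 RPM (-0.87). ELF3, an epithelial ETS factor, fell from 72.9 ± 13 to 40.6 ± 7.3 RPM (-0.84). The receptors ADGRF1 (61.9 ± 5.3 to 35.4 ± 3.2 RPM) and HTR7, a serotonin receptor (43.0 ± 3.0 to 25.0 ± 1.8 RPM), fell by 0.81 and 0.78 log2 units.

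**Figure D2:**
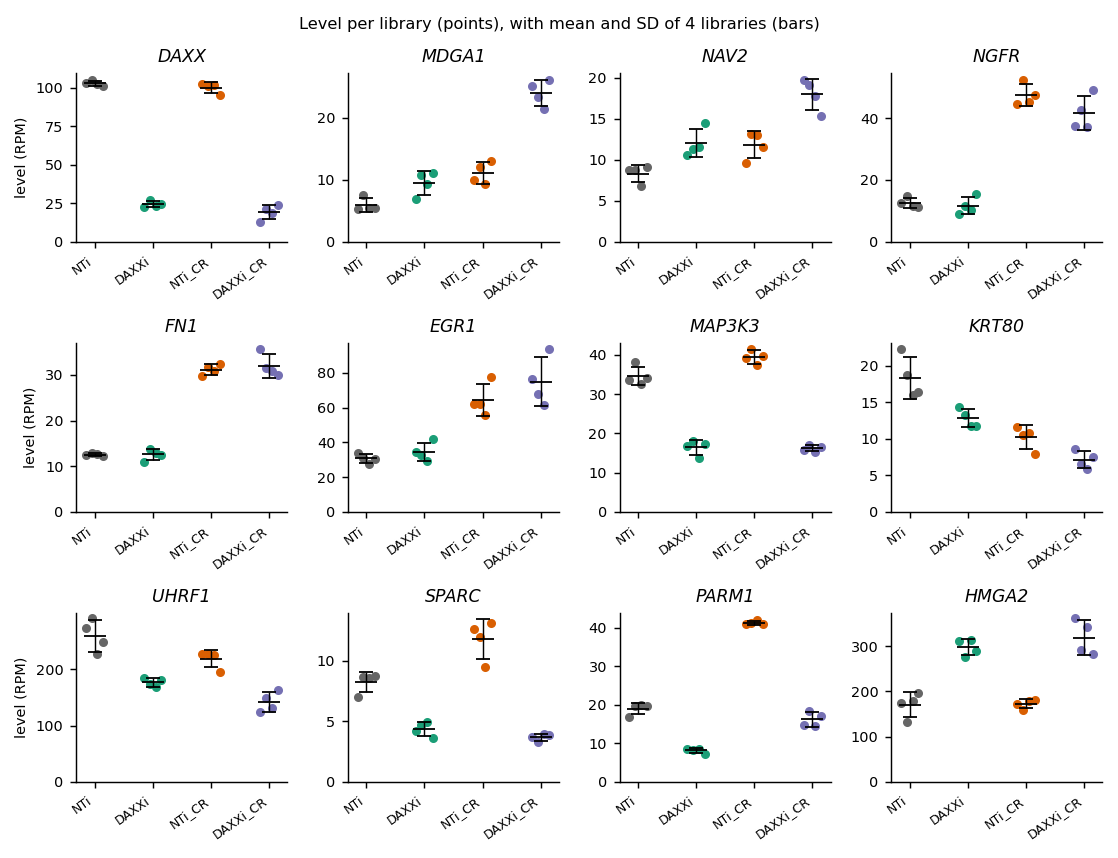
Level in RPM of 12 genes in every library of the 4 groups; points are libraries, and bars give the mean and SD of 4. DAXX is low in both knockdown groups, NGFR, FN1 and EGR1 are high in both crotonate groups, and MDGA1 and NAV2 are highest where both treatments were given.

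The same DAXXi_CR libraries can be set against each single treatment. These comparisons share samples with one another, so their values are given side by side and not as separate evidence. Against NTi_CR, where the difference is the siRNA and its dose, 70 genes (0.389%) were higher and 120 (0.668%) lower by limma. Against DAXXi, where the difference is crotonate, 2338 (13%) were higher and 433 (2.41%) lower. Against NTi, DAXX siRNA alone gave 18 higher (0.1%) and 55 lower (0.306%), and crotonate alone 2352 higher (13.1%) and 420 lower (2.34%).

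The counts against NTi_CR moved with the libraries. Leaving out DAXXi_CR replicate 1 or 2 gave 35 and 34 genes higher, and leaving out NTi_CR replicate 1, 2, 3 or 4 gave 35, 37, 32 and 25. Without NTi_CR replicate 1, 2, 3 or 4, 72, 70, 65 and 70 genes were lower. Without NTi replicate 2 and DAXXi_CR replicate 4 they were 179 higher and 231 lower. Against DAXXi, 251, 220 and 271 genes were lower without DAXXi replicate 1, DAXXi replicate 3 or DAXXi_CR replicate 2.

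No gene passed the test for a combined effect that differs from the sum of the single ones. The interaction term of limma gave 0 of 17973 genes (0%), with a smallest adjusted p of 0.995, and 433 genes (2.41%) had an unadjusted p under 0.05. Limma-voom on recovered reads also gave 0, with 449 genes under 0.05. Leaving out 1 NTi or DAXXi_CR library gave 355 to 1003 genes under 0.05. The 2.41% of the main fit lies below the 0.05 that evenly spread p-values would give, so 0 calls do not show that the effects add. SPARC, a matrix glycoprotein chosen after its values were seen, had an interaction of -0.74 log2 units (SE 0.182, unadjusted p = 0.000621). It measured 8.23 RPM in NTi, 4.35 in DAXXi, 11.8 in NTi_CR and 3.69 in DAXXi_CR. A fit with 2 components of the variation within groups as covariates gave 16 genes higher and 78 lower in the interaction; those components were taken from the residuals of the same libraries, which by construction narrows the error.

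For some genes each treatment moved the level the same way on top of the other. MDGA1 had means of 5.94 RPM in NTi, 9.54 in DAXXi, 11.1 in NTi_CR and 24.0 in DAXXi_CR, with changes of 1.12 log2 units for knockdown in crotonate (adjusted p = 0.00029) and 1.35 for crotonate in knockdown (adjusted p = 4.2e-06). NAV2, a neuron navigator protein, had 8.32, 12.01, 11.8 and 17.9 RPM in the same order (0.61 and 0.58). The knockdown step of NAV2 lost its call in 5 of 21 alternatives.

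Downward, ATAD2 passed both steps, with 291, 170, 282 and 123 RPM in NTi, DAXXi, NTi_CR and DAXXi_CR (-1.20 and -0.47), although crotonate alone left it at -0.03. TMEM39A, a membrane protein of the endoplasmic reticulum, had 32.4, 26.8, 26.7 and 20.4 RPM (-0.39 and -0.39). LYRM1, a small LYR-motif protein, had 24.9, 20.1, 25.8 and 15.7 RPM (-0.73 and -0.37). DAXX was also lower in DAXXi_CR than in DAXXi, by 0.38 log2 units (adjusted p = 0.045), a call lost in 10 of 21 alternatives. The crotonate step of LYRM1 was lost in 4 of 21.

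In another set the treatments moved the transcript in opposite directions, so that the combination sat near or between the single levels. PARM1, an androgen-regulated mucin-like protein, had 19.02 RPM in NTi, 8.22 in DAXXi, 41.3 in NTi_CR and 16.2 in DAXXi_CR. In crotonate it fell by 1.36 log2 units with knockdown (adjusted p = 3.0e-08) and in knockdown cells it rose by 0.98 with crotonate (adjusted p = 7.8e-07). Between DAXXi_CR (14.8, 18.5, 14.4 and 17.2 RPM) and NTi (16.8, 19.6, 19.9 and 19.8 RPM) the groups overlapped, and the combined change of -0.23 did not pass (limma adjusted p = 0.083).

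IGSF3, an immunoglobulin superfamily membrane protein, had 62.1, 29.3, 110 and 45.6 RPM in the same order of groups and remained lower in the combination (-0.45). TSPAN18 (13.1, 8.61, 28.4 and 18.7 RPM), TSPAN12 (8.12, 7.32, 17.1 and 11.6 RPM) and SULF2, an extracellular sulfatase (16.4, 11.5, 37.6 and 26.3 RPM), stayed higher than NTi by 0.51, 0.52 and 0.68 log2 units. The tetraspanin TSPAN18 overlaps TP53I11 on the opposite strand, which rose too (42.5 to 64.8 RPM). GDAP1 was the sixth such gene, with a combined change of 0.15 that did not pass (adjusted p = 0.18). The knockdown step of SULF2 lost its call in 8 of 21 alternatives and that of GDAP1 in 2.

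**Figure D3:**
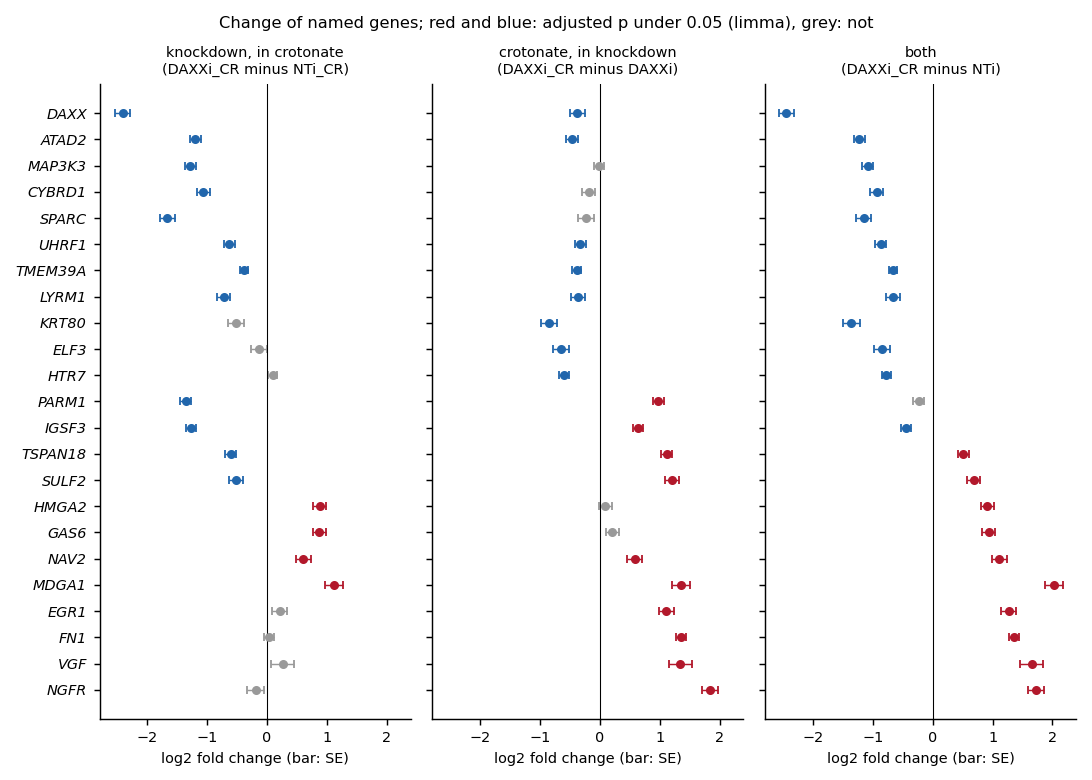
Log2 fold change with SE for a selection of the named genes in 3 comparisons that share the DAXXi_CR libraries: against NTi_CR, against DAXXi and against NTi. Red and blue mark a limma adjusted p under 0.05; PARM1, IGSF3, TSPAN18 and SULF2 are blue for knockdown and red for crotonate, while MDGA1 and NAV2 are red in all 3.

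Other genes differed mainly with the DAXX siRNA and its dose. HMGA2, an architectural chromatin protein of fetal tissue, had 175, 132, 178 and 197 RPM in NTi and 361, 290, 341 and 282 RPM in DAXXi_CR (log2 fold change 0.91). Its means were 298 RPM in DAXXi and 173 in NTi_CR. GAS6, which activates the receptors AXL, TYRO3 and MERTK, had means of 77.9, 128, 80.5 and 148 RPM in NTi, DAXXi, NTi_CR and DAXXi_CR (0.93). CPA4, a carboxypeptidase, and SEMA7A, a membrane-anchored semaphorin, both chosen after their values were seen, were also higher in both DAXX siRNA groups. With the groups listed as for GAS6, CPA4 had 27.8, 41.0, 25.0 and 49.6 RPM and SEMA7A 41.2, 56.0, 40.4 and 68.9 RPM.

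Of the gene lists, guidance molecules had one of the highest shares of raised genes. Of 39 axon guidance genes tested, 19 rose and 1 fell, against 15.7% and 4.73% of all genes, with a median change of 0.43 against 0.06. With crotonate alone (NTi_CR against NTi) the list median was 0.41, and with DAXX siRNA alone (DAXXi against NTi) -0.11. Over all genes these medians were 0.07 and -0.01. After centring 15 rose and 3 fell, against 9.55% and 12.5% of all genes, and after quantile normalization 16 rose and 3 fell, against 10.3% and 9.08%. The receptors PLXNA2 (2.00) and NRP2 (1.72) changed most, though both had means under the median level in every group, so the rule for the most raised genes passed them over. The secreted ligands SLIT2 (1.16), NTN1 (1.12), NTN4 (1.06) and SEMA3F (0.90) rose as well, and SEMA3B fell by 0.61, a call lost in 8 of 21 alternatives. EFNB2, the ligand of EPHB receptors, had 44.9, 40.5, 43.4 and 43.8 RPM in NTi and 87.4, 74.0, 72.6 and 79.0 RPM in DAXXi_CR. Over the list, the median library value relative to the NTi mean was 0.38, 0.50, 0.27 and 0.58 log2 units in DAXXi_CR and -0.04, 0.26, -0.09 and -0.11 in NTi, so that NTi replicate 2 came close to the lowest DAXXi_CR library. These genes are long: 18 of the 39 were in the longest of 4 equal classes of tested genes, of which 12 rose, and of the other 21, 7 rose. The part of gene length in the result was not tested.

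Of 19 genes of Wnt signalling and intestinal stem cells, 8 rose and 1 fell, against 15.7% and 4.73% of all genes (median 0.37). The median was 0.34 with crotonate alone and -0.11 with DAXX siRNA alone. NKD1, a Wnt feedback inhibitor, rose from 12.2 ± 0.77 to 27.0 ± 2.3 RPM (1.14) and EPHB2, a crypt-base receptor, from 32.3 ± 3.9 to 57.4 ± 4.0 RPM (0.84). AXIN2 rose by 0.37 and CCND1, which encodes cyclin D1, from 633 ± 86 to 847 ± 110 RPM (0.42). RNF43, a ubiquitin ligase that removes Wnt receptors, fell from 72.2 ± 3.6 to 57.4 ± 2.5 RPM (-0.33). After centring, 7 of the list rose and 5 fell, against 9.55% and 12.5% of all genes.

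Of 24 genes linked to epithelial-mesenchymal transition, 9 rose and 3 fell (median 0.42), against 15.7% and 4.73% of all genes. Crotonate alone gave a median of 0.42 and DAXX siRNA alone one of -0.04. With centring, 7 rose and 5 fell, against 9.55% and 12.5% of all genes. FN1 led the raised genes, which also include the factors SNAI1 (0.62) and TWIST1 (0.54), the integrin ITGA5 (0.61) and the ligand TGFB1 (0.39). SPARC had 6.98, 8.67, 8.58 and 8.70 RPM in NTi and 3.70, 3.27, 3.92 and 3.86 RPM in DAXXi_CR (-1.16), and S100A4, a calcium-binding protein, fell from 202 ± 15 to 136 ± 21 RPM (-0.59). On the epithelial side, 3 of 36 junction and keratin genes rose (8.33%) and 4 fell (11.11%), against 15.7% and 4.73% of all genes. The median of this list was 0.05, and -0.07 after centring, where 2 rose and 7 fell, against 9.55% and 12.5% of all genes. E-cadherin, CDH1, was among those that rose (43.1 ± 3.8 to 55.7 ± 2.7 RPM, 0.37) and KRT7 among those that fell (7.81 ± 2.2 to 2.96 ± 0.68 RPM, -1.38). CAV1, which coats caveolae, went down from 410 ± 35 to 251 ± 18 RPM (-0.71).

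Immediate early genes, the first transcripts induced through MAPK signalling, included many raised members. Of 38 tested, 16 rose and 1 fell, against 15.7% and 4.73% of all genes (median 0.27). The median was 0.18 with crotonate alone and -0.02 with DAXX siRNA alone. After centring 11 rose and 4 fell, against 9.55% and 12.5% of all genes. EGR1, a zinc finger transcription factor, had 34.1, 30.8, 27.8 and 30.3 RPM in NTi and 76.7, 67.6, 61.5 and 93.7 RPM in DAXXi_CR (log2 fold change 1.27, SE 0.128, limma adjusted p = 1.25e-06). EGR3 (1.24), NR4A3 (1.08), FOS (0.72), JUN (0.61) and KLF6 (0.63) rose too, as did the feedback phosphatases DUSP10 (1.04), DUSP4 (0.54) and DUSP6 (0.41). ATF3, which belongs to this list and to the amino acid response, fell from 28.5 ± 1.8 to 21.4 ± 2.0 RPM (-0.42).

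The stretch before the EGR1 start is shown because it holds words of the serum response element, the CArG box, and lies inside a region of the anti-crotonyllysine ChIP. It covers chr5:138465229-138465478 on the plus strand, from RefSeq on GRCh38.p14, and ends at the base before the start. Capitals mark the CArG words, which begin 105 and 83 bases before the start. Of 27305 RefSeq promoters, searched on both strands from 250 bases before to 50 after the start, 0.125% hold 1 of the 4 CArG words searched. A promoter was matched for 27 of the 38 immediate early genes (71.1%), too few for a share over the list. Among those 27, 13 of them raised, EGR1 was the only one with a CArG word. The AP-1 word TGANTCA, on both strands, was also in 1 of the 27, FOSL2, and in 7.76% of all promoters.
EGR1: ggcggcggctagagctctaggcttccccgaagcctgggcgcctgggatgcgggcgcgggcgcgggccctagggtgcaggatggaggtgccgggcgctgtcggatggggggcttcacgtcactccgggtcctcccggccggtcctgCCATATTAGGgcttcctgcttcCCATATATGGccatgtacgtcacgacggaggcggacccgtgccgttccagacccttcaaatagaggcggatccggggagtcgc

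Genes that histone deacetylase inhibitors typically raise, and secretory and neuronal genes, included some of the most raised. Of 18 such responders, 6 rose and none fell by limma (median 0.23), against 15.7% and 4.73% of all genes. Crotonate alone gave a median of 0.32 and DAXX siRNA alone one of -0.02. KLF4 had 16.6, 17.4, 14.7 and 15.6 RPM in NTi and 37.2, 33.2, 31.9 and 39.4 RPM in DAXXi_CR (1.14), and the chaperone HSPA2 went from 4.76 ± 0.86 to 11.1 ± 0.98 RPM (1.24). DHRS2, a reductase, had 4.30 RPM in NTi, 3.67 in DAXXi, 17.0 in NTi_CR and 10.4 in DAXXi_CR, and so was lower with knockdown than without it in crotonate (-0.72, adjusted p = 0.018). Of 12 neuronal and secretory genes, 4 rose and 2 fell, against the same 15.7% and 4.73%. Their median was 0.39, with 0.47 for crotonate alone and -0.14 for DAXX siRNA alone. Besides NGFR and VGF, the calcium sensor HPCAL4 went from 10.0 ± 0.99 to 23.7 ± 1.9 RPM (1.24). The granins SCG2 and SCG5 fell by 0.42 and 1.06, calls lost in 3 of 21 and 9 of 20 alternatives.

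In the insulin and IGF list 9 of 27 rose and 1 fell (median 0.18), against 15.7% and 4.73% of all genes. The median was 0.25 with crotonate alone and -0.06 with DAXX siRNA alone. The receptor IGF1R rose from 20.7 ± 2.5 to 32.7 ± 4.3 RPM (0.66), the growth factor IGF2 from 14.6 ± 1.6 to 27.9 ± 4.5 RPM (0.93) and FOXO1, a factor that insulin restrains, by 0.57. IRS1, the adaptor of both receptors, had 119, 151, 125 and 123 RPM in NTi and 86.0, 77.2, 68.6 and 89.6 RPM in DAXXi_CR, with no overlap (-0.69). IGF2 overlaps other transcripts of its locus on the same strand. H19, its imprinted neighbour, rose from 4.09 ± 0.87 to 9.23 ± 1.9 RPM (1.17). In the imprinted list 8 of 19 genes rose and 1 fell, against the same 15.7% and 4.73% of all genes. Its median was 0.22, with 0.34 for crotonate alone and -0.07 for DAXX siRNA alone.

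Lipid and stress lists were uneven. Their counts stand against 15.7% higher and 4.73% lower over all genes, and after centring against 9.55% and 12.5%. Of 34 genes of fatty acid oxidation and PPAR signalling, 12 rose and none fell by limma (7 and 0 after centring): PPARG went from 18.1 ± 0.82 to 29.2 ± 2.1 RPM (0.69), the acyl-CoA synthetase ACSL5 from 33.9 ± 1.4 to 49.8 ± 2.0 RPM (0.55), and PDK4 rose by 0.93. Of 35 genes of cholesterol and fatty acid synthesis, 2 rose and 7 fell (2 and 12 after centring, against 9.55% and 12.5% of all genes), among them ACACA, the acetyl-CoA carboxylase (173 ± 12 to 131 ± 12 RPM, -0.41). Of 30 NRF2 targets, 10 rose and 1 fell as deposited but 4 rose and 3 fell after centring. The NRF2 median was 0.09, with 0.03 for crotonate alone and 0.09 for DAXX siRNA alone. For the fatty acid oxidation and PPAR list it was 0.19, with 0.17 and 0.04. FTH1, the ferritin heavy chain, went from 1808 ± 171 to 2393 ± 173 RPM (0.41), with 2498 RPM in DAXXi and 1581 in NTi_CR. Of 37 genes of glycolysis and hypoxia, 7 rose (18.92%) and none fell by limma, a raised share near the 15.7% of all genes. They were led by EPAS1 (37.4 ± 1.9 to 69.9 ± 7.1 RPM, 0.90). With centring, 4 of the list rose and 5 fell, against 9.55% and 12.5% of all genes.

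Of 36 genes of the integrated stress response and amino acid metabolism, 11 fell, none rose by limma and 25 did not pass (median -0.16), against 4.73% lower over all genes. The median was -0.22 with crotonate alone and 0.01 with DAXX siRNA alone. After centring 17 fell, against 12.5% of all genes, and after quantile normalization 10, against 9.08%. The genes that fell include both subunits of an amino acid transporter, SLC7A5 (-0.52) and SLC3A2, which stood at 496, 556, 452 and 423 RPM in NTi and at 331, 344, 309 and 397 RPM in DAXXi_CR (-0.48). They also include the serine synthesis enzymes PHGDH (-0.39), PSAT1 (-0.38) and PSPH (-0.34), and the pathway's factors ATF4 (-0.33) and ATF5 (-0.38). The median library value of the list was -0.20, -0.15, -0.21 and -0.16 log2 units in DAXXi_CR and 0.05, 0.09, -0.02 and -0.09 in NTi, which did not overlap. Each of these falls was smaller than 1 log2 unit.

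Of 50 genes of DNA replication, 16 fell, 2 rose and 32 did not pass (median -0.12), against 4.73% lower and 15.7% higher over all genes. Crotonate alone gave a median of -0.08 and DAXX siRNA alone one of -0.02. After centring 21 fell and none rose by limma, against 12.5% and 9.55% of all genes. Those that fell include the helicase subunits MCM2 to MCM7: MCM2 had 386, 412, 340 and 331 RPM in NTi and 271, 275, 254 and 290 RPM in DAXXi_CR (-0.43), and MCM5 went from 320 ± 39 to 244 ± 21 RPM (-0.39). RFC4, a clamp loader subunit, fell from 69.9 ± 4.9 to 48.4 ± 4.1 RPM (-0.53) and PCNA, the clamp, by 0.25. Against this, E2F1, a factor that drives these genes, had 45.8, 55.1, 43.9 and 46.6 RPM in NTi and 54.8, 59.6, 54.5 and 71.6 RPM in DAXXi_CR, groups that overlapped; its rise (0.33) was lost in 5 of 21 alternatives, as was that of PRIM2 in 6. Of 39 genes of G2 and mitosis only CENPA passed, upward (0.32). After centring 6 of that list fell and none rose by limma, against 12.5% and 9.55% of all genes.

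Promoters of 3 of these genes are shown because words of the E2F site occur in them whether the gene fell or rose. They are the 250 bases before the RefSeq start on GRCh38.p14: UHRF1 at chr19:4909251-4909500, plus strand, MCM7 at chr7:100101398-100101647, minus strand, and E2F1 at chr20:33686386-33686635, minus strand. Capitals mark the words TTTCCCGC, TTTCGCGC, TTTGCCGC or TTTGGCGC on either strand.
UHRF1: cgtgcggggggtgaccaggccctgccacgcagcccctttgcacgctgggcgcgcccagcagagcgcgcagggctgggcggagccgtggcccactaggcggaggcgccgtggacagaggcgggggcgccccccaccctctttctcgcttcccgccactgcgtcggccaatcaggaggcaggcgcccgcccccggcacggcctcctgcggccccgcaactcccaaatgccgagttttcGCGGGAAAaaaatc
MCM7: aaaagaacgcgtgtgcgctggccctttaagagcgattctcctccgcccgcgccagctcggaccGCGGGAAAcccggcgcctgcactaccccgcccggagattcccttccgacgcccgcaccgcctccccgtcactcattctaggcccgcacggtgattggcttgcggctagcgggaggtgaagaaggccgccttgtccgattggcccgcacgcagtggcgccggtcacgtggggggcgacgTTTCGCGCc
E2F1: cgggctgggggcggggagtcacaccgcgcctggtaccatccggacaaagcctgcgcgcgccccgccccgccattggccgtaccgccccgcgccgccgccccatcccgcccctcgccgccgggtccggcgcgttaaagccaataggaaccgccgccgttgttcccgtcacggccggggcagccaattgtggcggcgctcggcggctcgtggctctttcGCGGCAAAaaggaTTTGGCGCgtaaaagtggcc

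A RefSeq promoter was found for 42 of the 50 replication genes. Of these, 20 hold at least 1 of the 4 words between 250 bases before and 50 after the start, against 3.33% of all 27305 promoters. The words were in 7 of the 14 promoters of genes that fell, in 1 of the 2 of genes that rose and in 12 of the 26 of genes that did not pass. These words were present at a similar share in the replication genes that fell and in those that did not pass.

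**Figure D4:**
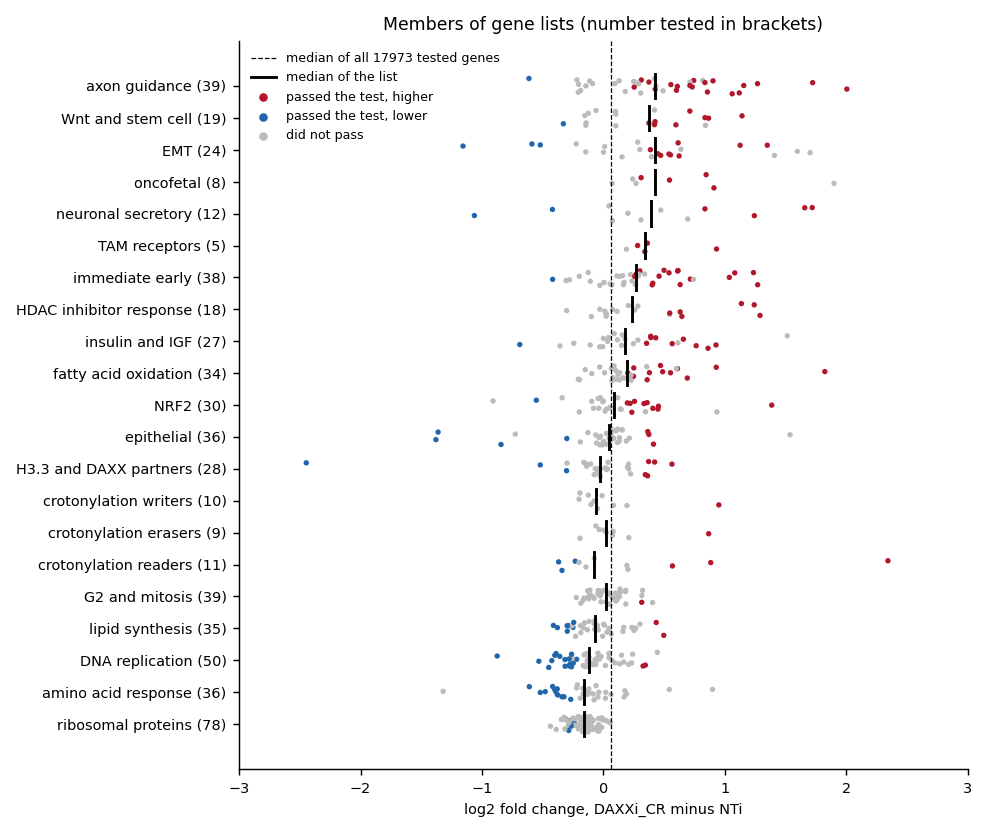
Log2 fold change, DAXXi_CR minus NTi, of the tested members of 21 gene lists; black ticks are list medians and the dashed line is the median of all tested genes. Axon guidance (19 of 39 raised) lies to the right, and amino acid response (11 of 36 lowered), DNA replication (16 of 50 lowered) and ribosomal proteins lie to the left.

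Ribosomal protein genes had a median of -0.16 over 78 genes, with 5 lower and none higher by limma. After centring 31 were lower and after quantile normalization 2. These counts stand against 4.73%, 12.5% and 9.08% lower over all genes. The median library value of the list was -0.41, -0.13, 0.015 and -0.105 log2 units in DAXXi_CR and -0.19, 0.12, 0.11 and -0.035 in NTi. The groups overlapped, and DAXXi_CR replicate 1 was the lowest. Of 73 nuclear genes of oxidative phosphorylation, 1 fell as deposited, 11 after centring and 2 after quantile normalization, against 4.73%, 12.5% and 9.08% of all genes. The 13 mitochondrial transcripts did not pass in either direction, and their summed level was 22764 to 35255 RPM in NTi and 23679 to 34950 RPM in DAXXi_CR.

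Genes that handle crotonylation were called in both directions, and 20.4% of all tested genes were called either way, 15.7% higher and 4.73% lower. Of 10 writers of crotonylation only KAT2B passed (0.95), and of 9 erasers only SIRT2 (0.87), both upward, while EP300 measured -0.05 and CREBBP -0.12 without passing. After centring 1 writer rose and 4 fell, against 9.55% and 12.5% of all genes. After quantile normalization 1 rose and 2 fell, against 10.3% and 9.08%. Of 11 readers, 3 rose and 3 fell: the YEATS protein MLLT3 had 7.21, 7.16, 7.57 and 8.33 RPM in NTi and 14.3, 14.7, 15.1 and 11.9 RPM in DAXXi_CR (0.88), and DPF3, a double PHD finger protein, went from 0.364 ± 0.15 to 1.73 ± 0.32 RPM (2.34). Their relatives MLLT1 (-0.34) and DPF2 (-0.23) fell, as did TAF1 (-0.37). Of 13 enzymes of crotonyl-CoA, 4 rose, among them ACOX3 (0.40) and HADHB (0.25), and GCDH fell from 19.95 ± 2.94 to 13.4 ± 1.6 RPM (-0.57). After centring no member of this list rose by limma and 2 fell, against 9.55% and 12.5% of all genes.

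Of 28 chaperones of H3.3 and partners of DAXX, 5 rose and 3 fell, DAXX included, against 15.7% and 4.73% of all genes. After centring 2 rose and 6 fell, against 9.55% and 12.5% of all genes, which turns the balance round. The kinase HIPK2, a DAXX binder, rose from 148 ± 8.8 to 220 ± 31 RPM (0.56), and HIPK1 and HIPK3 rose by 0.34 and 0.37. CBX5, the heterochromatin protein HP1 alpha, fell from 192 ± 29 to 133 ± 11 RPM (-0.52). TRIM28, the corepressor of KRAB zinc finger proteins, fell by 0.30, a call lost in 9 of 21 alternatives. Among DNA methylation genes, DNMT3A rose (17.2 ± 1.1 to 24.4 ± 1.2 RPM, 0.50) and DNMT3B fell (35.2 ± 3.3 to 24.3 ± 2.4 RPM, -0.53). None of 8 germline genes tested passed.

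In the interferon list 6 of 38 rose and 3 fell, a raised share near the 15.7% of all genes. After centring 4 rose and 5 fell, against 9.55% and 12.5% of all genes. After quantile normalization 3 rose and 5 fell, against 10.3% and 9.08%. Members of 1 family differed, with IFIT1 at 0.57 and IFIT2 and IFIT3 at -0.69 and -0.74. TRIM21 rose from 11.9 ± 1.3 to 20.7 ± 1.0 RPM (0.80). In the MHC class I list HLA-B (0.52) and HLA-F (0.84) rose while the proteasome activators PSME1 (-0.38) and PSME2 (-0.60) fell; HLA genes resemble one another, so their reads may be shared. In the NF-kB list CXCL8 and BIRC3 (0.89 each) rose and NFKBIA, the inhibitor of NF-kB, fell (40.7 ± 1.7 to 30.7 ± 2.8 RPM, -0.41). Of 37 protocadherins 15 rose and 1 fell, against 15.7% and 4.73% of all genes, yet the list median was -0.45. After centring, after quantile normalization and with 1 component as a covariate, 15 rose and 22 fell. Of all genes, 9.55% rose and 12.5% fell after centring, and 10.3% and 9.08% after quantile normalization. With the component as a covariate, 4463 of 17973 genes rose and 1811 fell. The raised protocadherins are all in the alpha cluster, whose genes overlap and share exons, so their reads cannot be told apart. PCDHAC2, of that cluster, went from 9.88 ± 0.58 to 16.6 ± 2.1 RPM. PCDHGA10, of the gamma cluster, was the 1 that fell as deposited (-0.44), a call lost in 6 of 21 alternatives. Genes of the gamma cluster may share reads in the same way, so the genes that fell need not be separate changes.

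Raised and lowered genes differed in length. The genomic span from start to end had a median of 49.9 kb in the raised genes, 19.5 kb in the lowered and 25.65 kb in all tested. Over 4 equal classes of tested genes from the shortest to the longest span, 8.41, 12.5, 16.1 and 25.8% rose, and 5.01, 6.19, 4.96 and 2.76% fell. For crotonate alone (NTi_CR against NTi) the raised shares were 7.19, 9.99, 12.7 and 22.5%, and for DAXX siRNA alone 0.09, 0.09, 0.16 and 0.07%. The order of the classes in the raised genes held after centring (5.43 to 16.1%), after quantile normalization (4.87 to 17.9%) and without NTi replicate 2 and DAXXi_CR replicate 4 (8.28 to 27.3%).

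Library by library the difference was less even. The median of the longest class minus that of the shortest, relative to the NTi mean, was 0.04, -0.26, 0.06 and 0.13 log2 units in NTi and 0.31, 0.13, 0.19 and -0.05 in DAXXi_CR. NTi replicate 2 and DAXXi_CR replicate 4 were the lowest of their groups, and the groups overlapped. The component on which these 2 libraries stand out also goes with length: the genes of largest weight have a median span of 10.99 kb and those of smallest weight one of 48.96 kb. The part of this variation between libraries in the length difference was not tested. A check of promoter base composition was void, because a RefSeq promoter was matched for 11417 of 17973 genes, less than 80%.

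**Figure D5:**
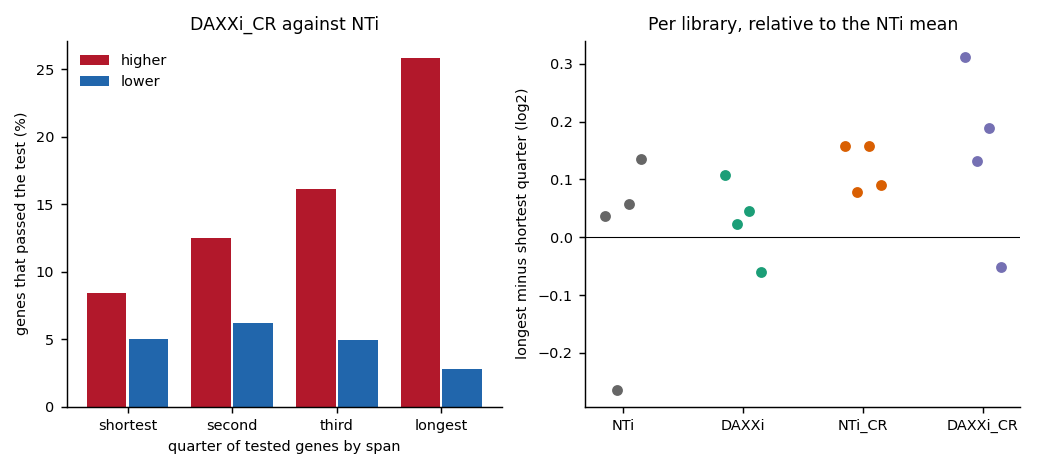
Left, share of tested genes that rose or fell by limma in DAXXi_CR against NTi, in 4 equal classes of gene span. Right, for every library, the median of the longest minus the shortest class in log2 units relative to the NTi mean; NTi replicate 2 at -0.26 and DAXXi_CR replicate 4 at -0.05 are the lowest of their groups.

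The anti-crotonyllysine (Kcr) ChIP of the same treatments was used to describe chromatin at the starts of these genes. It has 3 samples without treatment, counting libraries 1A and 1B as 1 sample, and 2 with DAXX siRNA and crotonate. Of 49916 regions none passed in limma (0%, smallest adjusted p = 0.0975), with 273 (0.547%) higher and 3561 (7.13%) lower at an unadjusted p under 0.05. The balance of these depended on the setting: quantile normalization gave 1308 higher and 1738 lower, and leaving out untreated sample 1 gave 633 and 1874. Leaving out treated sample 2 or treated sample 3 leaves only 1 treated sample. The median change over regions was then -0.22 and -0.05 log2 units, against -0.15 with both.

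A Kcr region lay within 2 kb of the start of 65.95% of raised genes, 79.5% of lowered genes and 68.5% of all tested genes. Raised genes had a lower median level than lowered genes (3.97 and 5.23 log2 RPM). Among genes at or above the median level the shares were 72.6%, 84.2% and 78.7%. Over genes of all levels, the median Kcr change in these regions was -0.21 log2 units at raised genes, -0.28 at lowered genes and -0.24 at all. The values are relative to 1 scaling factor per library, so a common shift has no meaning on this scale, and quantile normalization moved the median region from -0.15 to 0.00. At the EGR1 start the 3 untreated samples had log2 values of 7.81, 7.63 and 7.43 and the 2 treated ones 7.59 and 7.07. At MDGA1 they were 7.43, 6.80 and 6.92 against 6.91 and 6.92, and at UHRF1 5.54, 5.45 and 5.22 against 5.26 and 5.19. The UHRF1 region, chr19:4900951-4903350, lies at the start of the gene as counted for RNA (4903080). The UHRF1 promoter printed above, at chr19:4909251-4909500, belongs to another start and lies outside this region. The groups overlapped at EGR1 and MDGA1, where the transcript rose, and at UHRF1, where it fell. They did not overlap at every named gene. At EPHB2, a raised gene, the values were 6.51, 6.12 and 6.39 against 5.78 and 5.84 (limma adjusted p = 0.60). At KRT80, a lowered gene, they were 10.3, 10.05 and 9.98 against 9.92 and 9.71 (adjusted p = 0.64). At PARM1 the treated samples were higher, with 4.56, 4.69 and 4.41 against 4.92 and 4.70 (adjusted p = 0.82).

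The smallest p-values of single regions belonged to a region at the start of PHF10, a chromatin remodelling subunit (-1.90, unadjusted p = 1.95e-06), 1 at MFHAS1 (-1.17) and 1 within SPEN, a corepressor (-2.06). Upward they belonged to regions within RAPGEF1 (1.23), SLC25A21 (1.06) and TWIST2 (1.28). None of these passed after adjustment.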

How the data were processed

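RNA sequencing of HCT116 cells gave 16 libraries in 4 groups of 4, mapped to GRCh38. Trim Galore (0.6.2 and 0.6.5), cutadapt 2.3, HISAT2 2.2.1, Bowtie2 and MACS are named in the submitters' processing notes. The deposited ChIP table holds log2 reads per region times 1 factor per library, and the deposited RNA table holds log2 RPM per gene. There a count of 0 was entered as 0.9 read, and whole reads could be recovered for all values within 0.01 read. Each row was named by the gene it measures, since its annotation column can name an overlapping gene.

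Genes were tested with limma 3.58.1 (R 4.3.3), using 1 coefficient per group over all 16 libraries, a trend in the prior variance and Benjamini-Hochberg adjustment over 17973 genes. A gene was called at an adjusted p under 0.05. The ChIP table was tested the same way, with libraries 1A and 1B of a group averaged as 1 sample. Promoters of 250 bases before and 50 after the start came from RefSeq (GRCh38.p14). The tests were checked on simulated data, with libraries drawn independently of one another. That check does not cover the component of variation seen within groups here.

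Genes were named by fixed rules: DAXX; the 10 most raised and 10 most lowered called genes whose groups do not overlap and whose mean in the higher group reaches the median level, a condition that the change itself can decide; leading members of each of 44 lists; up to 4 genes in each direction that passed both steps; and 6 genes whose steps had opposite signs. SMIM40, CAV1, MCM2, MCM5, CCND1, DHRS2, SEMA7A, CPA4 and TP53I11 were named after their values were seen, as were the further list members given by their log2 fold change only. The comparison, its genes and the lists were chosen with earlier results of these data known. Alternatives were other scalings, filters, pseudocounts, voom, a replicate block and leaving out each library. Leaving out the 2 libraries that stand apart and the component covariates were chosen after seeing the data. Some genes that these rules select are not reported here.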

Additional observations from a re-analysis of the deposited data

Results flagged for a closer look

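Among 30 named genes, 60 groups of 4 libraries were searched for 1 library far from the other 3, and 8 were found. Chance flags about 1 in 20 groups. In NTi, replicate 2 was high for MDGA1 (7.54 RPM) and low for GDAP1 (18.7 RPM), replicate 3 low for NAV2 (6.76 RPM), replicate 4 high for TMEM39A (34.7 RPM), and replicate 1 low for PARM1 (16.8 RPM). In DAXXi_CR, replicate 1 was high for ETS1 (38.9 RPM) and low for TSPAN12 (10.2 RPM), and replicate 3 was low for IGSF3 (39.5 RPM).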

How the results depend on the processing

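Of 126 named genes called between DAXXi_CR and NTi, 102 were called in every alternative run, 24 lost the call in at least 1 and none reversed. Against NTi, leaving out each library gave 2270 to 3001 genes higher and 659 to 954 lower. The fit on these 2 groups alone gave 1747 and 343, centring 1717 and 2245, quantile normalization 1859 and 1632, 1 component as a covariate 4463 and 1811, and 2 components 4979 and 2344. Against DAXXi, leaving out each library gave 1781 to 2255 higher and 220 to 597 lower, centring 1515 and 1488, quantile normalization 1448 and 852, and the components 3719 and 1219, then 4297 and 1924; without the 2 libraries that stand apart 746 were lower. Against NTi_CR, leaving out each library gave 25 to 70 higher and 65 to 116 lower, leaving out both libraries 179 and 231, and the components 526 and 566, then 953 and 981. For the interaction, leaving out each library gave 0, and 2 components gave 16 and 78. The components come from residuals of these libraries, which makes the p-values too small. The cause of the other shifts was not tested.

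Deviations of same-numbered DAXXi_CR and NTi libraries from their group means had correlations of 0.44, 0.15, 0.68 and -0.82. The highest value of any pair was 0.81, between DAXXi_CR replicate 4 and NTi replicate 2. These few values differ in sign and cannot settle whether the numbers pair the libraries. The replicate block gave 3184 higher and 1017 lower against NTi, 98 and 155 against NTi_CR, and 2581 and 584 against DAXXi. For Kcr it gave 5 regions lower, keeping 1A and 1B apart gave 4, and leaving out each sample gave 0 to 246.

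List medians that changed sign after centring were those of erasers (-0.0962), DNA methylation (-0.1172), epithelial genes (-0.0726), NRF2 (-0.0354), iron and heme (-0.0852), metallothioneins and zinc (-0.044), unfolded protein response (-0.0643), G2 and mitosis (-0.1012), glycolysis and hypoxia (-0.0973), colon markers (-0.0967), immune markers (-0.0032) and mitochondrial transcripts (-0.0713). After quantile normalization they were those of erasers (-0.0064), DNA methylation (-0.0663), iron and heme (-0.003) and immune markers (-0.0733).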
